A study of Mus musculus with 36 samples.

Results

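White fat cells fill the pad in which the ducts of the mouse mammary gland branch, and 10 genes by which fat cells are known were followed here in 36 RNA-seq libraries of mammary tumors and control glands. The genes were taken by name, as a measure of how much of the fat pad's RNA was left in a tumor, and all 10 of them were found among the 21650 genes of the expression table. They are Pparg, Plin1, Cidec, Fabp4, Lpl, Adipoq, Lep, Adrb3, Car3 and Ucp1. Of the 12 groups, each with 3 libraries, 3 groups were 4T1 tumors grown in BALB/c mice, 3 were Py230 tumors grown in C57BL/6 mice, and 6 were mammary glands of BALB/c or C57BL/6 mice that had received Matrigel® only, each kind of sample being taken 1, 3 or 6 weeks post-inoculation (w p.i.).

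4T1 is a metastatic mammary tumor line derived from BALB/c mice and here carried luciferase, and Py230 is a locally invasive line from a spontaneous tumor of a C57BL/6 mouse in which the MMTV promoter drives the polyoma middle T oncogene in mammary epithelium. Each line was thus grown in its own strain, so that line and strain cannot be told apart between the tumors, and more Py230 than 4T1 cells were inoculated. All mice were females mated at 8 weeks of age and inoculated through the teat canal of the third mammary gland 1 h after their pups had been weaned at 10 days, so that tumors and tumor-free glands alike come from mice that had just ended lactation at inoculation. RNA came from whole tumors and glands, and in such bulk RNA fewer fat cells and less of a transcript per fat cell cannot be told apart. RNA of a member that comes from other cells is counted as well, so that what is left of a member in a tumor need not be fat pad. The study names the 3 tumors of a group independent samples, whereas nothing says whether the glands of a group came from separate mice, so that the spread between glands may be partly technical.

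White fat cells store triglyceride in a single large droplet and release it as fatty acids when catecholamines reach their receptors. The nuclear receptor PPARγ drives their formation together with C/EBP factors. Mammary fat cells lose their lipid during lactation and fill again when the gland involutes. Brown and beige fat cells share much of this programme and in addition burn fuel through the uncoupling protein UCP1.

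The expression value of a gene is a score that the authors deposited, scaled within each library so that the scores of all its genes average 0 and 1 unit equals 1 SD between its genes. The read depth of the libraries is unknown from these scores. The scores are not set per length of the transcript, so that levels were compared for the same gene between libraries and not between genes. Differences are in score units with the standard error (SE) of limma's model over all 36 libraries. A difference was called at a Benjamini-Hochberg adjusted p under 0.05 over all 21650 genes. The model takes the same spread of a gene for all groups, although the groups differed in spread. Adipoq, for example, had an SD of 0.98 in Py230 tumors at 3 w p.i. and of 0.11 in C57BL/6 glands at 1 w p.i. An SE can thus be too large for glands and too small for a group that scatters widely. At 3 w p.i. the tumor numbered 1 stood apart in both models, with a mean score over the members of 0.561 against 1.80 and 1.81 in the other 4T1 tumors, and of 0.207 against 1.37 and 1.61 in the other Py230 tumors. Counts of called members that involve tumors of 3 w p.i. are therefore also given without both of these libraries. They were picked by the low scores of the members themselves. Leaving them out thus raises the members at 3 w p.i. and narrows the shared spread by construction. Such counts show how far a result rests on these libraries and are no separate evidence.

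The members lie on 5 chromosomes of the mm10 build (GRCm38, GENCODE M21), and each is a protein-coding gene. On chromosome 6 are Lep (ENSMUSG00000059201, 29060220 to 29073877, plus strand), Cidec (ENSMUSG00000030278, 113424634 to 113435760, minus strand) and Pparg (ENSMUSG00000000440, 115360951 to 115490399, plus strand). Chromosome 8 holds Adrb3 (ENSMUSG00000031489, 27225776 to 27250616, minus strand), Lpl (ENSMUSG00000015568, 68880491 to 68907448, plus strand) and Ucp1 (ENSMUSG00000031710, 83290352 to 83298452, plus strand). Fabp4 (ENSMUSG00000062515, 10204088 to 10208576, minus strand) and Car3 (ENSMUSG00000027559, 14863512 to 14872523, plus strand) are on chromosome 3, Plin1 (ENSMUSG00000030546, 79720218 to 79732903, minus strand) is on chromosome 7, and Adipoq (ENSMUSG00000022878, 23146536 to 23158028, plus strand) is on chromosome 16. In the authors' mean of normalized counts over the libraries, a value that is not set per length, the members ranged from 412.6 for Ucp1 and 1118.8 for Pparg to 36265.3 for Lpl and 78714.1 for Car3.

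Promoter sequences were looked up because 9 of the members moved together over the libraries and Ucp1 did not. The RefSeq table (GRCm38.p6, 250 bases before to 50 bases after each start) held 6 of the 10 members in 9 windows, namely Adipoq, Cidec, Lep, Plin1, Pparg and Ucp1. The windows of Lep and Plin1, which moved together, and of Ucp1 are printed 5′ to 3′ on the strand of the gene. Capitals mark the C/EBP motif TTNNGCAA and the nuclear receptor half-site AGGTCA, both searched on both strands, and no printed match overlaps another.
Lep promoter, chr6:29059971-29060270, plus strand: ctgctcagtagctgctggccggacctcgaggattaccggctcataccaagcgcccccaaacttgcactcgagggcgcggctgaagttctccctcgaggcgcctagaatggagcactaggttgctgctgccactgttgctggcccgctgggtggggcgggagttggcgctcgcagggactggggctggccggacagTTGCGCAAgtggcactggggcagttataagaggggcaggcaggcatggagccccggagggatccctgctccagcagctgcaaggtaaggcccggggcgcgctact
Plin1 promoter, chr7:79732727-79733026, minus strand: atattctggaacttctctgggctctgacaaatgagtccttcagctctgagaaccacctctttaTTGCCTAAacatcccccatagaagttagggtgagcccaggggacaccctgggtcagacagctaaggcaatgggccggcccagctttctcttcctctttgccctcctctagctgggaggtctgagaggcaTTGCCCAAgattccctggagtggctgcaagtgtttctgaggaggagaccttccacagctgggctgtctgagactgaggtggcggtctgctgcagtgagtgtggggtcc
Ucp1 promoter, chr8:83290098-83290397, plus strand: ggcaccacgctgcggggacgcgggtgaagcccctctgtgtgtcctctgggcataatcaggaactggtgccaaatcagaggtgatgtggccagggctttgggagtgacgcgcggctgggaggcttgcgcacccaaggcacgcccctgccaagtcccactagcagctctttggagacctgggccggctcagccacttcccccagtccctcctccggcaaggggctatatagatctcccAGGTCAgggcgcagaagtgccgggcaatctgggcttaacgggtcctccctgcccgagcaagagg
The C/EBP motif started at -55 from the start site in Lep and at -187 and -58 in Plin1, and it was also found in windows of Cidec and Pparg. It was in 4 of the 9 windows, where 10.8% of all 32851 windows held it. The half-site was found in 3 of the 9 windows, that of Ucp1, at -14, and others of Pparg, where 16.3% of all windows held it. A direct repeat of the half-site with 1 base between, AGGTCANAGGTCA, was in 0.04% of all windows and in none of the members' windows, and the window of Adipoq held none of the motifs searched. These matches describe letters in the windows only.

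Averaged over the 10 members, the tumor-free glands of both strains lay close together at all times. The mean score was 1.83 ± 0.29 (SD, n = 3) in BALB/c glands at 3 w p.i., 1.73 ± 0.10 in C57BL/6 glands at 3 w p.i., 1.73 ± 0.16 in C57BL/6 glands at 6 w p.i., 1.71 ± 0.31 in BALB/c glands at 1 w p.i. and 1.68 ± 0.11 in C57BL/6 glands at 1 w p.i. Py230 tumors at 1 w p.i. followed with 1.55 ± 0.08, before the BALB/c glands at 6 w p.i. with 1.53 ± 0.15. The remaining tumor groups came below all glands, in the order of 4T1 at 3 w p.i. with 1.39 ± 0.72, 4T1 at 1 w p.i. with 1.12 ± 0.24, Py230 at 3 w p.i. with 1.06 ± 0.75, Py230 at 6 w p.i. with 0.24 ± 0.49 and 4T1 at 6 w p.i. with -0.32 ± 0.16. None of the 11 pairs of neighbours in this order had ranges that lay apart. For single members as well, neighbours in the order of the 12 groups overlapped, with 1 exception each in Lep, Plin1, Lpl, Pparg and Adrb3, where all Py230 tumors at 6 w p.i. were above all 4T1 tumors at 6 w p.i. The order of the glands depended on Ucp1, which was high in single BALB/c glands. Over the 9 members without Ucp1, C57BL/6 glands at 6 and 3 w p.i. came first, with 2.14 ± 0.18 and 2.14 ± 0.11. BALB/c glands then had 2.10 ± 0.15 at 3 w p.i. and 1.96 ± 0.16 at 1 w p.i. The order of the tumor groups stayed the same.

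**Figure D1:**
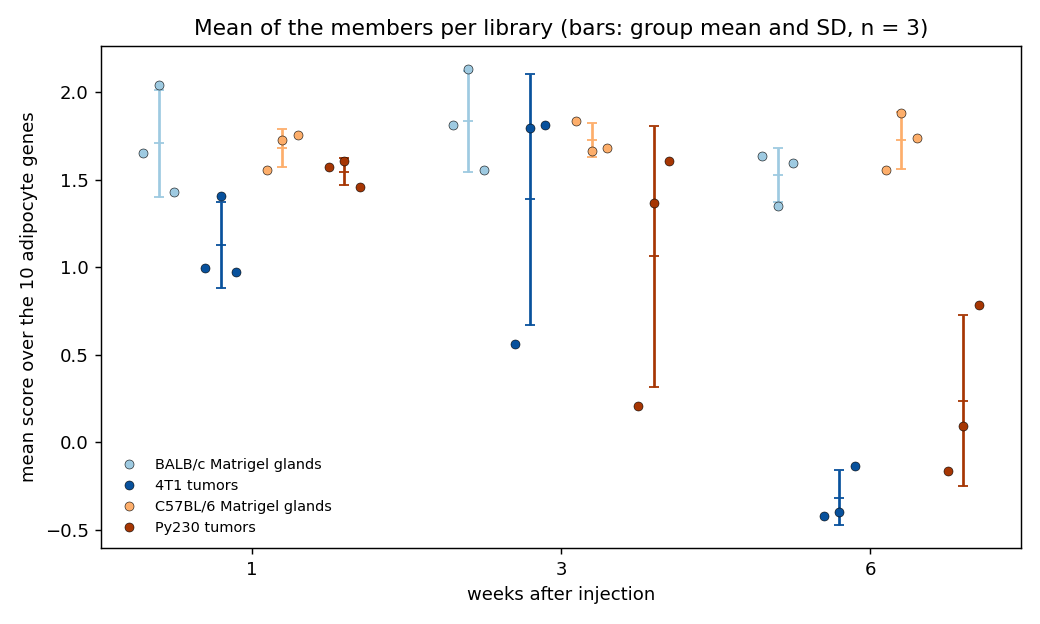
Mean score over the 10 adipocyte genes (vertical axis, score units) against weeks after injection, with 1 point per library and the group mean and SD (n = 3) as bars, for BALB/c Matrigel glands, 4T1 tumors, C57BL/6 Matrigel glands and Py230 tumors. The 4T1 tumors at 6 w p.i. lie lowest, with a mean of -0.32, and the tumor numbered 1 of each line lies far below the others at 3 w p.i.

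The first question is whether the fat cell genes were lower in a tumor than in a tumor-free gland of the same strain and week. At 6 w p.i. they were, in both models: 9 of 10 members fell below the glands in 4T1 tumors and 9 of 10 in Py230 tumors, and Ucp1 was the exception in both. Ucp1 was already low in the glands of 6 w p.i., with scores of -2.09 to -1.77, where the lowest score of any gene was -2.68. It thus had less room to fall than the other members. Of all genes tested, 60.1% were called between 4T1 tumors and BALB/c glands at 6 w p.i., 38.6% higher and 21.5% lower, and for Py230 tumors against C57BL/6 glands 47.6% were called, 28.8% higher and 18.7% lower. The median difference of the members was -2.03 in 4T1 tumors and -1.70 in Py230 tumors, beside 0.0651 and 0.0337 over all genes. For all 9 of these members the 3 tumors lay below the 3 glands without overlap in both models, and the groups lay apart in either direction in 66.6% and 64.1% of all genes.

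Pparg encodes the receptor that drives fat cell formation. At 6 w p.i. its score was 0.99, 0.69 and 1.00 in the BALB/c glands and -0.47, -0.30 and -0.39 in the 4T1 tumors. In C57BL/6 glands it was 0.96, 1.31 and 1.13, and in Py230 tumors -0.14, -0.08 and 0.31. All tumors were thus below all glands, and the difference was -1.28 (SE 0.20, limma, adjusted p = 7.1e-06) for 4T1 and -1.10 (SE 0.20, limma, adjusted p = 8.6e-05) for Py230, the smallest among the 9 members that fell.

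The lipid droplet is coated by perilipin 1, the product of Plin1, and droplets are enlarged by the product of Cidec. Plin1 scored 2.02, 1.71 and 1.96 in BALB/c glands and -0.53, -0.46 and -0.26 in 4T1 tumors at 6 w p.i. Its scores were 1.94, 2.31 and 2.18 in C57BL/6 glands and -0.17, 0.02 and 1.05 in Py230 tumors. Plin1 fell by 2.32 in 4T1 tumors (SE 0.35, limma, adjusted p = 3.6e-06) and by 1.84 in Py230 tumors (SE 0.35, limma, adjusted p = 0.00012), and the third Py230 tumor kept the highest level of the 6 tumors. Cidec scored 2.00, 1.68 and 1.85 in BALB/c glands and -0.42, -0.64 and 0.08 in 4T1 tumors. In C57BL/6 glands it scored 1.72, 2.09 and 1.94 and in Py230 tumors -0.33, -0.06 and 0.99. Here too the third tumor was the highest in each line, and the differences were -2.17 for 4T1 (SE 0.35) and -1.71 for Py230 (SE 0.35), both called by limma with adjusted p of 8.5e-06 and 0.00025.

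Fatty acids enter the fat cell after lipoprotein lipase, encoded by Lpl, has released them from circulating triglyceride, and the product of Fabp4 carries them inside. Fabp4 scored 2.70, 2.45 and 2.66 in BALB/c glands, 0.73, 0.84 and 0.88 in 4T1 tumors, 2.57, 2.94 and 2.77 in C57BL/6 glands and 0.60, 0.86 and 1.61 in Py230 tumors at 6 w p.i. It was lower by nearly the same amount in both models, with differences of -1.79 in 4T1 and -1.73 in Py230 tumors (SE 0.31 in both, limma, adjusted p = 2.5e-05 and 6.8e-05). For Lpl the scores were 2.74, 2.46 and 2.66 in BALB/c glands, 0.52, 0.53 and 0.99 in 4T1 tumors, 2.69, 3.01 and 2.94 in C57BL/6 glands and 1.09, 1.24 and 1.71 in Py230 tumors. All 4T1 tumors were below all Py230 tumors, and the differences from the glands were -1.94 and -1.53 (SE 0.24 in both, limma, adjusted p = 1.6e-07 and 1.1e-05).

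The hormones of the fat cell are adiponectin, encoded by Adipoq, and leptin, encoded by Lep. Adipoq scored 2.08, 1.79 and 2.13 in BALB/c glands and -0.41, -0.56 and -0.02 in 4T1 tumors at 6 w p.i. Its scores were 2.14, 2.52 and 2.37 in C57BL/6 glands and -0.04, 0.10 and 1.21 in Py230 tumors. All tumors were below all glands, with a difference of -2.33 in 4T1 tumors (SE 0.37, limma, adjusted p = 7.0e-06), and of -1.92 in Py230 tumors (SE 0.37, limma, adjusted p = 0.00013). Lep scored 1.12, 0.67 and 1.05 in BALB/c glands, -0.88, -0.86 and -0.72 in 4T1 tumors, 1.24, 1.44 and 1.49 in C57BL/6 glands and -0.62, -0.40 and 0.32 in Py230 tumors. No tumor reached the lowest gland, and the differences were -1.77 and -1.62 (SE 0.30 in both, limma, adjusted p = 2.2e-05 and 0.00011).

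Adrb3 encodes the β3-adrenergic receptor, through which catecholamines start lipolysis in fat cells of rodents. It scored 1.36, 1.06 and 1.36 in BALB/c glands, -0.87, -0.83 and -0.88 in 4T1 tumors, 1.27, 1.68 and 1.41 in C57BL/6 glands and -0.82, -0.60 and 0.33 in Py230 tumors at 6 w p.i. The 3 4T1 tumors were nearly equal, and the differences were -2.12 in 4T1 and -1.82 in Py230 tumors (SE 0.33 in both, limma, adjusted p = 5.9e-06 and 7.8e-05). Car3 encodes carbonic anhydrase 3, a cytosolic enzyme abundant in fat cells and also in skeletal muscle. Its scores were 3.13, 2.95 and 3.07 in BALB/c glands, 0.02, 0.16 and 0.88 in 4T1 tumors, 2.99, 3.37 and 3.25 in C57BL/6 glands and 0.79, 1.57 and 2.17 in Py230 tumors. Its difference of -2.70 in 4T1 tumors (SE 0.37, limma, adjusted p = 8.2e-07) was the largest of the members in size, and in Py230 tumors it was -1.69 (SE 0.37, limma, adjusted p = 0.00048). Genes of skeletal muscle, the other tissue rich in Car3, also fell in 4T1 tumors at 6 w p.i. (10 of 10 called lower, mean score of the list -0.55 to 0.27 in tumors and 2.27 to 2.71 in glands), and their part in the difference of Car3 was not tested.

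**Figure D2:**
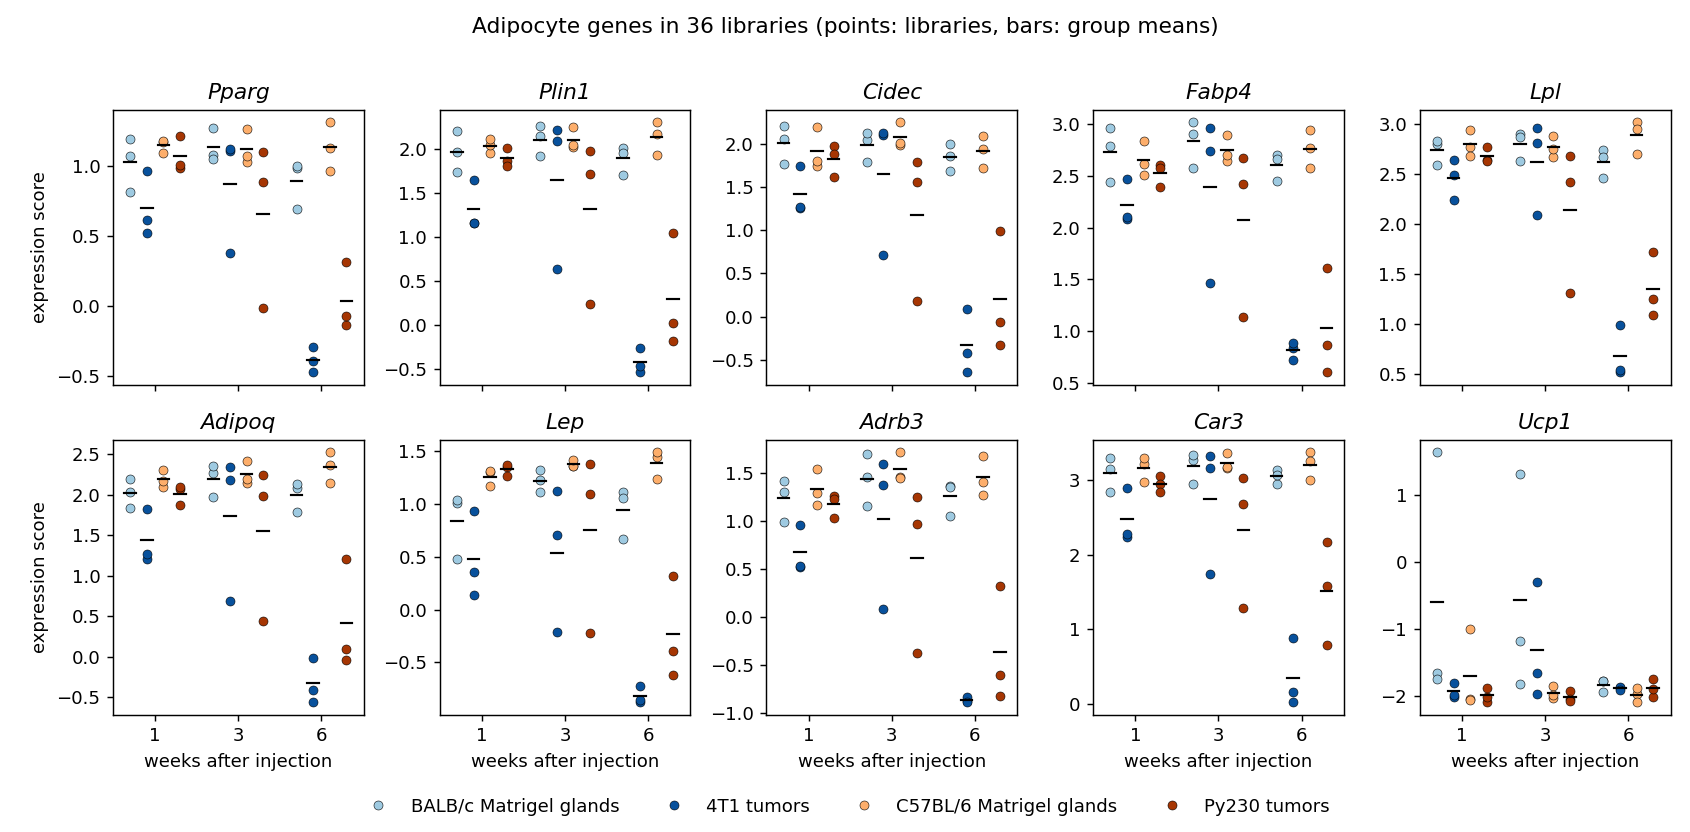
Scores of the 10 members (vertical axes, score units, 1 panel per gene) in every library against weeks after injection, as points for the 4 kinds of sample with a bar for each group mean (n = 3). In 9 panels both tumors lie below the glands at 6 w p.i., and Ucp1 stays near -2 in most libraries, with 1.63 and 1.30 in the second BALB/c gland at 1 and 3 w p.i.

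At the earlier times the same comparison gave few calls. At 1 w p.i., 0 of 10 members were called in 4T1 tumors against BALB/c glands by limma, where 16.6% of all genes were called and 1 member, Ucp1, had an unadjusted p under 0.05. All 10 differences were negative, from -0.28 for Lpl to -0.65 for Plin1 among the 9 members without Ucp1, and Ucp1 had -1.34 (95% interval -2.62 to -0.05). The difference of Ucp1 rested on the second BALB/c gland, with 1.63 against -1.66 and -1.75 in the others, and was -0.23 without that gland. The 3 4T1 tumors lay below the 3 glands without overlap in 5 of the members, Ucp1 among them, where the groups lay apart in 32.4% of all genes. Adipoq, for example, scored 1.21, 1.83 and 1.27 in 4T1 tumors and 2.03, 2.19 and 1.84 in BALB/c glands at 1 w p.i., a difference of -0.58 (95% interval -1.34 to 0.17). Adipoq was thus lower in each tumor, but the difference was within the spread of the model.

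Py230 tumors at 1 w p.i. could not be told from C57BL/6 glands by any member. Limma called 0 of 10 members, 0 of them had an unadjusted p under 0.05, and only 2 of all genes (0.00924%) were called. The differences ran from -0.22 for Car3 to 0.07 for Lep among the 9 members without Ucp1. For Adipoq, with 2.07, 2.10 and 1.87 in tumors and 2.09, 2.17 and 2.31 in glands, the 95% interval of -0.93 to 0.58 leaves room for a difference of the size seen in 4T1 tumors. This interval rests on the spread shared by all groups, whereas the SD was 0.12 in these tumors and 0.11 in these glands.

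For each member except Ucp1, the SD over the 12 groups was largest in Py230 tumors of 3 w p.i. In 4T1 tumors 0 of 10 members were called against BALB/c glands by limma (3.25% of all genes, with 1 member, Lep, at an unadjusted p under 0.05), and the median difference was -0.44. The first tumor carried this difference: Adipoq scored 0.69, 2.18 and 2.35 in tumors and 2.27, 2.36 and 1.97 in glands, and Lpl scored 2.08, 2.81 and 2.96 in tumors and 2.90, 2.87 and 2.63 in glands. The other 2 tumors were therefore inside the range of the glands or above it for Adipoq and Lpl. Lep did not depend on the first tumor alone. It scored -0.22, 0.70 and 1.13 in tumors and 1.23, 1.11 and 1.32 in glands, and its difference was still -0.31 without the first 4T1 tumor. With both tumors numbered 1 left out, the median difference was 0.05, again with 0 members called, and 7 of the 10 differences had turned positive.

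Py230 tumors at 3 w p.i. differed from C57BL/6 glands in 1 of 10 members, Adrb3, beside 19.7% of all genes called and 6.9% called lower. Adrb3 scored -0.37, 0.97 and 1.25 in the tumors and 1.71, 1.45 and 1.45 in the glands, all tumors below all glands, and the difference was -0.92 (SE 0.33, limma, adjusted p = 0.048). An unadjusted p under 0.05 was reached by 8 members, the median difference was -0.68, and 4 members lay apart between the groups, where 37.3% of all genes did. The counts of members called lower and of members apart were near the shares of all genes. Next in size were Cidec, with a difference of -0.90 (SE 0.35, limma, adjusted p = 0.066), and Car3, with -0.90 (SE 0.37, limma, adjusted p = 0.084). The call of Adrb3 rests on single libraries and on the spread shared by all groups, whereas its SD in these tumors was 0.87. Without both tumors numbered 1 its difference was -0.43 (limma, adjusted p = 0.31) and 0 of 10 members were called, with a median difference of -0.21. Without the first Py230 tumor alone, or without any single C57BL/6 gland, 0 members were called, and without the third Py230 tumor 9 were.

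**Figure D3:**
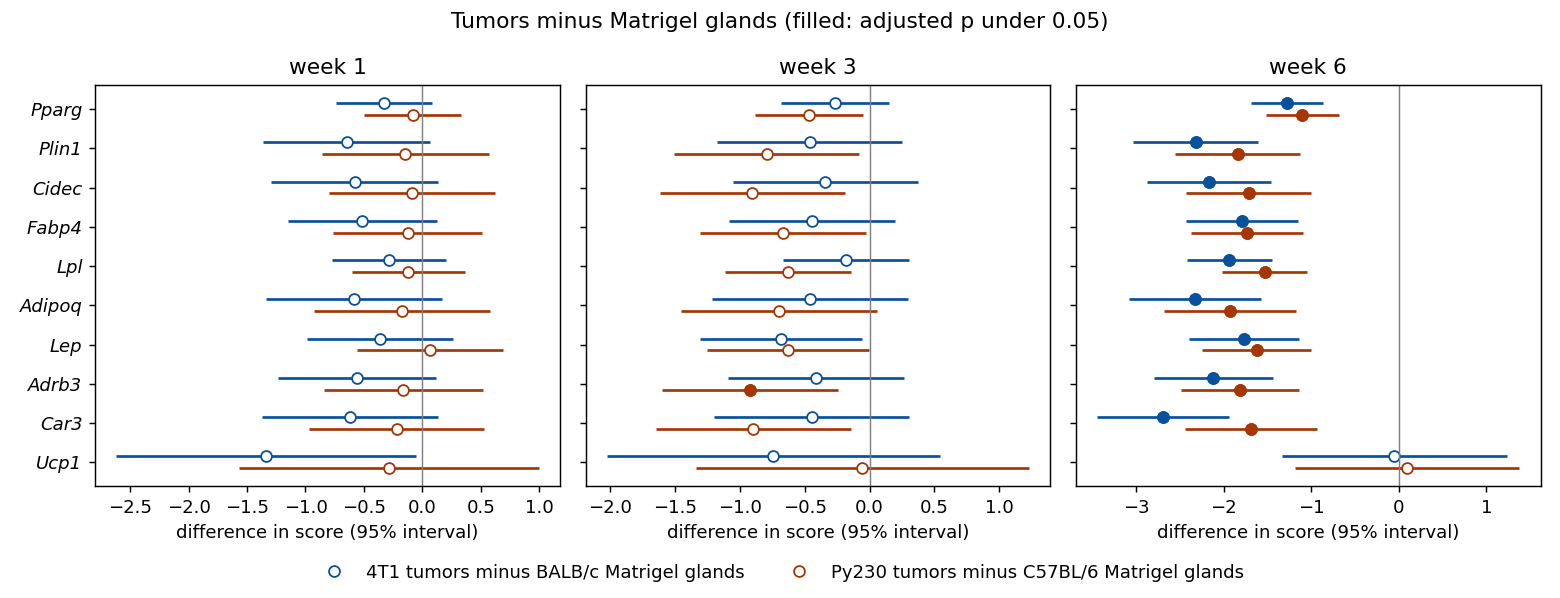
Difference in score between tumors and Matrigel glands (horizontal axes, score units, on a scale of their own in each panel) for the 10 members at the 3 times, for 4T1 tumors against BALB/c glands and Py230 tumors against C57BL/6 glands, with 95% intervals as lines and filled points where the adjusted p was under 0.05. At 6 w p.i. 9 of 10 members are filled in both models, at 3 w p.i. only Adrb3 in Py230 tumors is, and at 1 w p.i. none is.

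The tumors numbered 1 at 3 w p.i. also differed from their group in genes of other cell types. The mean score of 8 proliferation genes was 0.52 in the first 4T1 tumor and 0.07 and -0.33 in the others, and it was 0.92, 0.69 and 0.31 in the Py230 tumors. For 8 macrophage genes the means were 2.30, 1.85 and 1.75 in 4T1 tumors and 1.40, 1.49 and 1.48 in Py230 tumors. The part of these cells in the low scores of the members was not tested.

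Within a line, the weeks were compared as well. In 4T1 tumors 9 of 10 members fell from 3 to 6 w p.i., beside 53% of all genes called and 18.8% called lower, with differences from -1.25 for Pparg (SE 0.20, limma, adjusted p = 1.2e-05) to -2.38 for Car3 (SE 0.37, limma, adjusted p = 6.3e-06), and the exception was Ucp1 with -0.58 (limma, adjusted p = 0.45). All 9 lay apart between the weeks, as 55.8% of all genes did, the low first tumor of 3 w p.i. included. From 1 to 3 w p.i., 0 members were called in 4T1 tumors (0.628% of all genes, 0 members at an unadjusted p under 0.05), and without the first tumor of 3 w p.i. the count was again 0. With both tumors numbered 1 out of the fit, of which the Py230 tumor is not in this comparison and enters through the shared spread, 6 members were higher at 3 w p.i., beside 19.1% of all genes called. The libraries left out were picked for low scores of the members, so that this count is no separate evidence of a rise.

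In Py230 tumors the fall from 3 to 6 w p.i. passed the test in 2 of 10 members, beside 6.03% of all genes called and 2.06% called lower. Fabp4 scored 1.14, 2.42 and 2.68 at 3 w p.i. and 0.60, 0.86 and 1.61 at 6 w p.i., with a difference of -1.05 (SE 0.31, limma, adjusted p = 0.042). Lpl scored 1.31, 2.42 and 2.68 at 3 w p.i. and 1.09, 1.24 and 1.71 at 6 w p.i., with a difference of -0.79 (SE 0.24, limma, adjusted p = 0.045). Both genes overlapped between the weeks. The third Py230 tumor of 6 w p.i. scored highest of its group in all members but Ucp1, and without it 8 members were called. With both tumors numbered 1 of 3 w p.i. left out 9 members were called, and leaving out the second or the third tumor of 3 w p.i., or the first or the second of 6 w p.i., gave 0. The tumors numbered 1 had the lowest mean of the members at 3 w p.i., so that leaving them out widens this fall by construction. From 1 to 3 w p.i. 0 members were called in Py230 tumors by limma (20% of all genes, with 1 member, Lpl, at an unadjusted p under 0.05), without both tumors numbered 1 there were also 0, and without the third tumor of 3 w p.i. there were 3.

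No change of a member over the same weeks was detected in the glands. In BALB/c glands and C57BL/6 glands 0 of 10 members were called between 1 and 3 w p.i. or between 3 and 6 w p.i. by limma, and 0 had an unadjusted p under 0.05, beside 0.0139% and 0% of all genes in BALB/c glands and 0.129% and 0.217% in C57BL/6 glands. The median differences of the members were 0.10 and -0.21 in BALB/c glands and 0.07 and 0.01 in C57BL/6 glands. All 10 differences from 3 to 6 w p.i. were negative in BALB/c glands, from -0.13 to -0.27 without Ucp1, and Ucp1 had -1.26 (95% interval -2.55 to 0.02). The 95% interval for Adipoq in this comparison was -0.95 to 0.56, so that changes of such a size would not have been called by this model. It rests on the spread shared by all groups, whereas the SD of Adipoq was 0.20 and 0.19 in the BALB/c glands of 3 and 6 w p.i.

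The second question is whether the 2 models differed from each other. At 1 w p.i., 1 of 10 members was called between 4T1 and Py230 tumors, beside 19.4% of all genes and 8.43% called lower. This was Lep, with 0.14, 0.94 and 0.35 in 4T1 tumors and 1.35, 1.37 and 1.26 in Py230 tumors, a difference of -0.85 (SE 0.30, limma, adjusted p = 0.049). All 4T1 tumors were below all Py230 tumors in Lep, yet the call was lost without the first or the third 4T1 tumor or without any of the Py230 tumors, at adjusted p of 0.088 to 0.21. Lep scored lower also in BALB/c than in C57BL/6 glands at 1 w p.i., with 1.01, 0.48 and 1.03 against 1.30, 1.31 and 1.17, but this difference of -0.42 (SE 0.30, limma, adjusted p = 0.69) was not called. Between the tumors 5 members lay apart, where 39.1% of all genes did. The counts of members called lower and of members apart were thus near the shares of all genes. The other 9 differences ran from -0.58 for Adipoq to 0.06 for Ucp1.

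At 3 w p.i. 0 of 10 members were called between the tumors by limma, beside 30.3% of all genes, and 0 had an unadjusted p under 0.05. Of the differences, 9 were positive, that is, 4T1 was higher, with a median of 0.37, and Lep was negative with -0.21 (95% interval -0.84 to 0.41). Lpl came closest to a call with 0.48 (95% interval -0.0046 to 0.97). Without both tumors numbered 1 there were also 0 called members, without the first 4T1 tumor alone 4 were called, and without the third Py230 tumor 1 was. Genes of macrophages were higher in 4T1 tumors in the same comparison (8 of 8, beside 11.9% of all genes), those of proliferation were lower (5 of 8, beside 18.5%), and their part was not tested.

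At 6 w p.i., 2 of 10 members were lower in 4T1 than in Py230 tumors, beside 40.8% of all genes called and 16.7% called lower. The count of members called lower was thus near the share of all genes. Car3 differed by -1.16 (SE 0.37, limma, adjusted p = 0.012) and overlapped in 1 pair of tumors, the third of 4T1 and the first of Py230. Lpl differed by -0.67 (SE 0.24, limma, adjusted p = 0.025) with all 4T1 tumors below all Py230 tumors, as were 5 members in all, where 58.2% of all genes lay apart. Without the first 4T1 tumor or the third Py230 tumor 0 members were called, and without the second 4T1 tumor 1 was. The interval of the difference reached from -1.51 to 0.0011 for Adipoq and from -0.85 to 0.43 for Fabp4, so that a lower level in 4T1 tumors cannot be set aside for these genes.

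The change of the difference between the tumors over time, a comparison chosen after seeing the data, gave 0 called members from 1 to 3 w p.i. (15.3% of all genes, limma, with 1 member, Lpl, at an unadjusted p under 0.05) and 2 from 3 to 6 w p.i. (26.7% of all genes, 8.88% lower), again Lpl and Car3.

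Subtracting the Matrigel glands of each strain from its tumors left 0 of 10 members called between the models at each week, by limma and also at an unadjusted p under 0.05. Of all genes, 0.305%, 9.15% and 25.5% were called after this subtraction in order of the weeks. With both tumors numbered 1 left out there were also 0 called members at 3 w p.i. The median difference of the members was -0.40, 0.28 and -0.35 at these weeks. The largest at 6 w p.i. was that of Car3 with -1.01, beside -1.16 without the subtraction. A comparison of 4 groups has a larger SE than that of 2 groups, so that a lost call does not show that a difference was gone. Between the glands of both strains, 0 of 10 members were called at any week, beside 3.06%, 3.77% and 3.84% of all genes, and 1 member, Ucp1 at 3 w p.i., had an unadjusted p under 0.05. Lep scored lower in all BALB/c than in all C57BL/6 glands at each week, where the groups lay apart in 16.6%, 25.4% and 24.7% of all genes, with differences of -0.42, -0.16 and -0.44 (SE 0.30 in each) that were not called.

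Ucp1 did not follow the other members. Its score was between -2.09 and -1.65 in 31 of the 36 libraries, and 5 libraries were higher. These were the second BALB/c gland at 1 w p.i. with 1.63, the second BALB/c gland at 3 w p.i. with 1.30, the second 4T1 tumor at 3 w p.i. with -0.30, the second C57BL/6 gland at 1 w p.i. with -1.001 and the first BALB/c gland at 3 w p.i. with -1.18. The other 2 glands of the first of these groups scored -1.66 and -1.75, so that the mean of the group was -0.59 ± 1.92 (SD, n = 3). At 6 w p.i. Ucp1 scored -1.77, -1.94 and -1.78 in BALB/c glands, -1.88, -1.86 and -1.91 in 4T1 tumors, -1.96, -1.88 and -2.09 in C57BL/6 glands and -2.01, -1.75 and -1.89 in Py230 tumors. It was thus low in all groups, and the differences of tumors from glands were -0.05 (95% interval -1.33 to 1.23) and 0.09 (95% interval -1.19 to 1.38). The lowest score of any gene was -2.68, so that Ucp1 had little room to fall in the tumors.

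The 5 libraries with the highest Ucp1 also had the 5 highest means over 10 other genes of brown and beige fat, from -0.18 to 0.49, where the other 31 libraries ranged from -0.84 to -0.21. Of these 5 libraries, 4 are numbered 2 in their group, among them the second gland of both strains at 1 w p.i. Over the 36 libraries Ucp1 correlated with this mean with r = 0.83 and a Spearman rho of 0.41. Single genes ranged from r = 0.74 for Otop1, an ion channel of brown fat, and 0.69 for Ppara, a nuclear receptor of fatty acid oxidation, down to 0.26 for Prdm16, a determinant of brown fat, and 0.19 for Dio2, the deiodinase that activates thyroid hormone. These values are a description over libraries of the same 12 groups. Skeletal muscle genes were high in the same libraries. The mean score of their list was 2.61 in the second BALB/c gland at 1 w p.i. against 1.65 and -0.35 in the others, 2.80 in the second C57BL/6 gland at 1 w p.i. against 1.56 and -0.64, and 2.25 in the second 4T1 tumor at 3 w p.i. against 1.31 and 1.42. In BALB/c glands at 3 w p.i. it was 2.08 and 2.02 in the first and the second and 0.16 in the other. Muscle genes were as high in some libraries with low Ucp1. BALB/c glands at 6 w p.i. had list means of 2.31, 2.71 and 2.27, where Ucp1 was -1.77, -1.94 and -1.78. The part of muscle in the values of Ucp1 was not tested. In the 5 libraries with the highest Ucp1 the mean of the other 9 members was 2.03 to 2.23, within the range of the glands.

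The other 9 members moved together over tumors and glands. Over the 36 libraries each member was correlated with the mean of all other members, which for these 9 includes Ucp1. Among the 9 the correlation was lowest in Lep (r = 0.91), followed by Lpl (r = 0.97), and highest in Plin1 (r = 0.99), whereas Ucp1 had r = 0.22. Within the 18 tumors these values were 0.95 for Lep and 0.998 for Plin1. Within the 18 glands, where the levels of the 9 members varied less than in the tumors, Plin1 had 0.90 and Fabp4 0.91. Lep had -0.12 there, although its scores ranged from 0.48 to 1.49, so that it did not move with the others in the glands. Ucp1 was far higher in a few glands and enters the mean of the others, so that these gland values depend on it. The samples share their groups, so that these values describe a pattern over tumors and glands and are not evidence from independent samples.

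**Figure D4:**
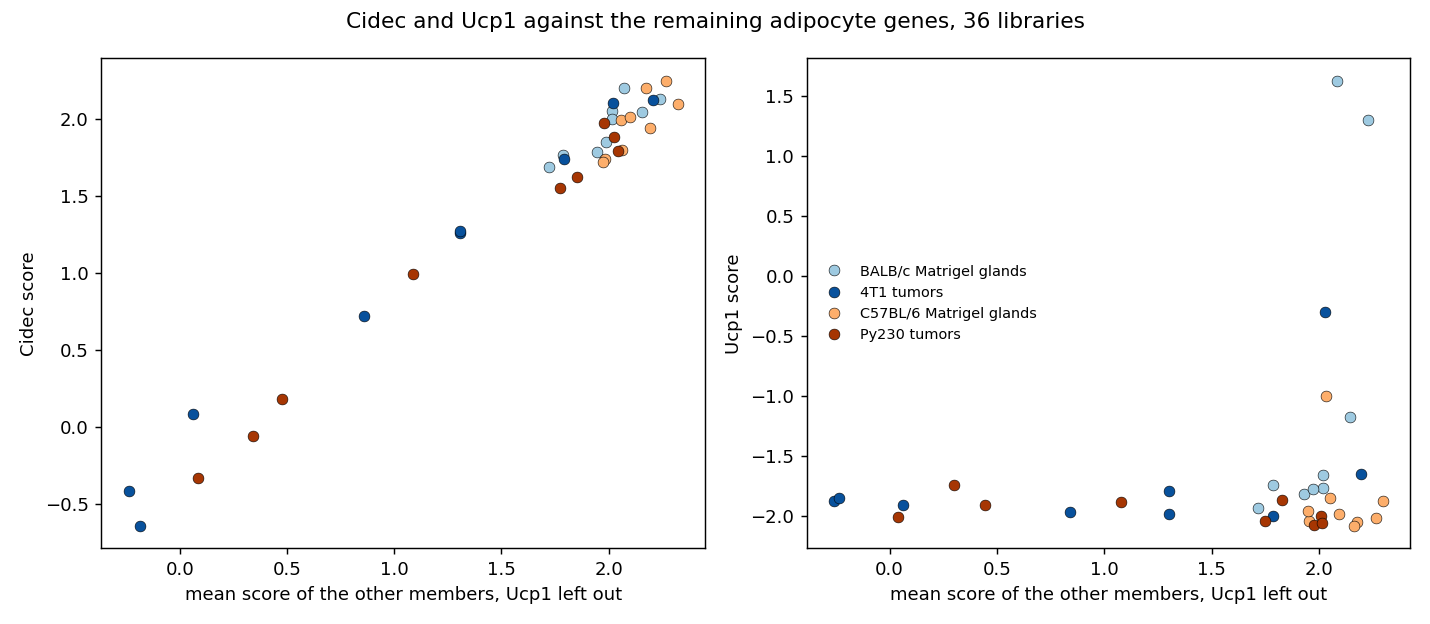
Scores of Cidec (left) and Ucp1 (right) on the vertical axes against the mean score of the remaining members without Ucp1 on the horizontal axes, with 1 point per library (n = 36) and colours for the 4 kinds of sample. Cidec rises with the other members over the whole range, and Ucp1 stays near -2 except in 5 libraries, all of them with a mean over 2 on the horizontal axis.

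The 10 genes outside the members whose pattern was most like the mean of the members over the 36 libraries had r of 0.985 to 0.991. These were Ces1d, a carboxylesterase that hydrolyses lipids (r = 0.991, rho = 0.970), Cfd, which encodes the serine protease adipsin (r = 0.990, rho = 0.964), Retn, which encodes resistin (r = 0.988, rho = 0.951), Plin4, a further droplet coat protein (r = 0.986, rho = 0.922), and Fmo1, Dpyd, Lims2, Lipe, B3galt2 and Cd36. Lipe encodes hormone-sensitive lipase and Cd36 a fatty acid transporter. The most opposite genes were Mapk1ip1l (r = -0.947), Gm13136, Shmt2, a mitochondrial enzyme of one-carbon metabolism, Mif, a cytokine, and Nrbp1 (r = -0.940).

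Further genes of the fat cell were read from lists, whose counts at 6 w p.i. stand beside 21.5% of all genes called lower and 38.6% called higher in 4T1 tumors and 18.7% and 28.8% in Py230 tumors. Of 7 genes of triglyceride breakdown, 6 fell in 4T1 tumors and 6 in Py230 tumors at 6 w p.i. against the glands, with median differences of -1.32 and -1.15. The leading genes were Mgll, the monoglyceride lipase, with -1.39 (SE 0.19, limma, adjusted p = 1.3e-06), and Plin4 with -2.07 in 4T1 tumors, and Aqp7, the glycerol channel, with -1.61, and Pnpla2, the first lipase of the pathway, with -1.15 in Py230 tumors. Genes of fat synthesis fell without exception, 12 of 12 in both models, with median differences of -1.21 and -1.06. In 4T1 tumors Thrsp, a regulator of lipogenesis, had -2.52 (SE 0.29, limma, adjusted p = 5.0e-08) and Scd1, the stearoyl-CoA desaturase, -2.20, and in Py230 tumors Scd1 had -1.53 and Acacb, an acetyl-CoA carboxylase, -1.20. Fatty acid and glucose uptake fell in 5 of 8 and 6 of 8 genes, led by Cd36 with -1.77 in 4T1 and -1.49 in Py230 tumors, followed by the glucose transporter gene Slc2a4 with -1.82 in 4T1 tumors and by Angptl4, an inhibitor of lipoprotein lipase, with -1.32 in Py230 tumors.

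Regulators and hormones were more mixed. Of 8 transcription factors of fat cells, 7 fell and 1 rose in 4T1 tumors at 6 w p.i., and 5 fell and 2 rose in Py230 tumors. Rxra, the partner of PPARγ, had -0.35 (SE 0.04) and Nr1h3, which encodes the sterol receptor LXRα, -0.71 in 4T1 tumors. In Py230 tumors Cebpb, an early factor of fat cell formation that other cells also use, rose by 0.45 (SE 0.06, limma, adjusted p = 6.9e-07) and Nr1h3 had -0.65. Adipokines and their receptors fell in 5 of 7 genes and rose in 1 in 4T1 tumors, led by Cfd with -2.55 and Retn with -2.16, and they fell in 4 of 7 in Py230 tumors, led by Retn with -2.07 and Rbp4, the retinol carrier, with -1.75. Of 10 genes of brown and beige fat, 6 fell and 2 rose in 4T1 tumors, where Dio2 was higher by 1.60 (SE 0.17, limma, adjusted p = 1.9e-08) and Cox8b, a subunit of the respiratory chain in brown fat, was lower with -1.69. In Py230 tumors 2 of 10 were called lower, Prdm16 with -0.55 among them, beside 18.7% of all genes, and 1 was called higher, Kng2, a kininogen gene, with 0.40, beside 28.8%. Skeletal muscle genes were also lower in 4T1 tumors, with list means of -0.55 to 0.27 against 2.27 to 2.71 in BALB/c glands. Their part in the falls of the brown and beige fat genes was not tested. Fat cell progenitor genes fell in 6 of 7 and 4 of 7, led by Zfp423 (-0.70) and Dpp4 (-1.03) in 4T1 tumors and by Pdgfra (-0.64) and Pi16 (-1.002) in Py230 tumors.

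In 4T1 tumors at 1 w p.i., where 0 of 10 members were called, 4 of 12 genes of fat synthesis fell, beside 6.72% of all genes called lower, with Thrsp at -0.97 (SE 0.29, limma, adjusted p = 0.024) and Elovl6, a fatty acid elongase, at -1.03 (SE 0.31, limma, adjusted p = 0.026). Of 10 brown and beige fat genes 3 fell at this time, among them Ppargc1a, the coactivator of mitochondrial genes, with -0.80 and Ppara with -0.69. The transcription factor gene Ebf2 (-0.52), the fatty acid transporter gene Slc27a1 (-0.60) and Zfp423 (-0.31) were the only genes called in their lists. At the same time macrophage genes rose in 8 of 8, beside 9.91% of all genes called higher, led by Cd68 with 0.55 and C1qb with 0.52, and proliferation genes rose in 3 of 8. The list means were 1.91 to 2.16 against 1.25 to 1.79 for macrophages and 0.37 to 0.81 against -0.17 to 0.28 for proliferation, and their part in the falls was not tested.

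Markers of other cell types moved beside the members at 6 w p.i., and their part in the differences of the members was not tested. Their counts stand beside 21.5% of all genes called lower and 38.6% called higher in 4T1 tumors. In Py230 tumors these shares were 18.7% and 28.8%. Of 8 proliferation genes 8 rose in both models, led by Cdk1 with 1.23 in 4T1 and Birc5 with 1.03 in Py230 tumors, and the mean score of the list was 0.80 to 1.06 and 0.79 to 0.95 in the tumors against -0.41 to 0.12 and 0.01 to 0.06 in the glands. Secretory epithelium of the gland was lower, with 8 of 9 milk genes called in 4T1 tumors (list means -0.23 to -0.21 against 1.41 to 1.46 in glands) and 6 of 9 lower and 1 higher in Py230 tumors (0.48 to 0.75 against 1.16 to 1.30). Skeletal muscle genes fell in 10 of 10 in 4T1 tumors and in 0 of 10 in Py230 tumors, where the list means were -0.68 to 1.28 against 1.75 to 2.03 in glands. Macrophage genes were called higher in 4 of 8 and 0 of 8, with list means of 1.74 to 1.77 in 4T1 and 1.49 to 1.58 in Py230 tumors against 1.19 to 1.78 and 1.51 to 1.62 in glands. The list means of the 4T1 tumors thus lay within the range of the glands.

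The counts of the remaining lists stand beside the same shares of all genes, 21.5% lower and 38.6% higher in 4T1 tumors and 18.7% lower and 28.8% higher in Py230 tumors, and those of luminal genes in 4T1 tumors were near them. Of 8 endothelial genes, 4 fell in 4T1 and 7 in Py230 tumors, with list means of 0.71 to 0.80 and 0.69 to 0.72 against 0.99 to 1.08 and 0.98 to 1.17. Fibroblast genes fell in 4 of 7 and 3 of 7, led by Dcn, which encodes decorin, with -1.30 and -1.18, and their list means were 1.68 to 2.00 and 1.77 to 1.96 against 1.98 to 2.44 and 2.18 to 2.37. Luminal epithelial genes rose in 2 and fell in 2 of 8 in 4T1 tumors and rose in 4 of 8 in Py230 tumors, with list means of 0.99 to 1.46 and 1.55 to 1.70 against 1.28 to 1.52 and 1.25 to 1.52. None of the 3 erythroid genes measured was called in either model, with list means of 0.41 to 0.97 and 0.25 to 0.77 in tumors against 0.57 to 0.70 and 0.61 to 0.83 in glands.

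**Figure D5:**
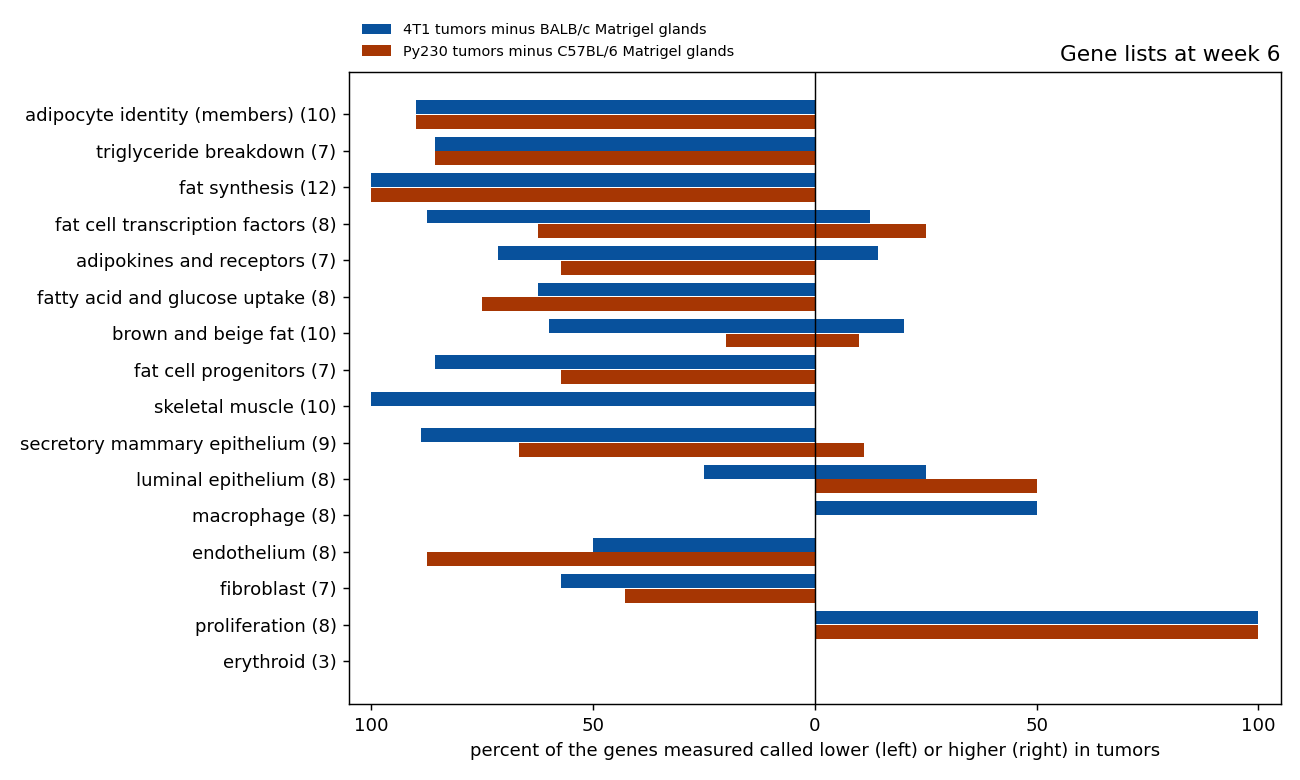
Percent of the genes measured in each list (number in brackets) that were called lower, to the left, or higher, to the right, in tumors than in Matrigel glands at 6 w p.i., for 4T1 and Py230 tumors. The fat cell lists point mainly to the left, with 12 of 12 genes of fat synthesis in both models, and proliferation points to the right with 8 of 8. The lists of fat cell transcription factors, adipokines and brown and beige fat also hold genes called higher.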

How the data were processed

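RNA-seq values of 36 libraries (12 groups of 3, read from the titles) were analysed. Per the study's methods and the submitters' processing notes, the authors prepared stranded libraries from total RNA, sequenced read pairs, used STAR for mapping to mm10 and summariseOverlaps (GenomicAlignments) for counting, and normalized with DESeq2. Tool versions and the gene annotation are not given in the sources used here. The expression table that the authors deposited holds score values and not counts, with a mean of 0 and an SD of 1 in each library over 21650 genes, a step that is not described in the sources used here. Its 36 columns were all mapped to samples. The tables of the authors' own comparison of 4T1 with Py230 tumors gave the gene symbols and, as another value that the authors deposited, the mean normalized count of each gene; their fold changes and p-values, and a table of hallmark membership, were not used. Of the genes, 16266 had a symbol there and 5384 were named from GENCODE M21.

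Scores were fitted in R 4.3.3 with limma 3.58.1, with 1 mean per group over all libraries, empirical Bayes moderation with trend and robust options, and Benjamini-Hochberg adjustment over all genes (threshold 0.05). Intervals are at 95%. With 3 libraries against 3, an exact permutation test cannot go below p = 0.10, so no such test was used. The fit was tested on simulated scores. The members and the gene lists were chosen with earlier results of these data known. The rule for naming genes took all 10 members, from each further list the 2 genes with the smallest p in the comparison of the sentence, and the 10 genes most like the mean of the members by Pearson r. The 5 most opposite genes, the genes set beside Ucp1 and the change of the difference between the tumors were added after the values were seen. Replicate numbers paired the samples by their deviations in 1 of the comparisons of 2 groups, BALB/c against C57BL/6 glands at 1 w p.i. (r = 0.41, 0.79 and 0.56), where 0 members were called with and without the number as a block. The deviations of 4T1 tumors and C57BL/6 glands at 6 w p.i. also went together by number (r = 0.16, 0.21 and 0.37). These groups were not compared directly, but both enter the comparison with the glands subtracted. No 2 libraries were copies (highest r 0.993). Alternatives were cyclic loess and quantile normalization of the scores, only the groups compared in the fit, moderation without trend and robust options, only genes whose mean normalized count reached 10, the replicate number as a block, each library left out, and, added after seeing the data, both tumors numbered 1 at 3 w p.i. left out. Figures were drawn with matplotlib 3.10.9.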

Additional observations from a re-analysis of the deposited data

Results flagged for a closer look

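The difference between the tumors changed from 3 to 6 w p.i. in 2 of 10 members, and each was flagged because the change over time then differed between the models by its own test. For Car3, 4T1 minus Py230 went from 0.41 to -1.16, a change of -1.56 (SE 0.52, limma, adjusted p = 0.026). For Lpl it went from 0.48 to -0.67, a change of -1.15 (SE 0.33, limma, adjusted p = 0.012). Both calls were lost when only these 4 groups were fitted. The other 8 members had changes of the same sign, from -0.37 for Lep to -1.05 for Plin1, and were not called, beside 8.88% of all genes called lower. Groups of 3 are too small for the test of single libraries that stand apart.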

How the results depend on the processing

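The counts of 9 of 10 members lower at 6 w p.i. in either tumor, and of 9 of 10 lower from 3 to 6 w p.i. in 4T1 tumors, were the same under every alternative that was run. For Py230 tumors against C57BL/6 glands at 3 w p.i., 1 member was called in the report, 3 with the replicate number as a block, 0 with only the groups compared, 0 with both tumors numbered 1 left out and 0 to 9 with 1 library left out. For Py230 tumors from 3 to 6 w p.i., 2 became 5 with the block, 0 with only the groups compared, 9 without both tumors numbered 1 and 0 to 9 with 1 library left out. Between 4T1 and Py230 tumors at 1 w p.i., 1 became 0 with only the groups compared and was 0 to 1 with 1 library left out. With 1 library left out, the count was 0 to 4 between the tumors at 3 w p.i., 0 to 2 between them at 6 w p.i., 0 to 3 for Py230 tumors from 1 to 3 w p.i. and 0 to 1 for 4T1 tumors against BALB/c glands at 1 w p.i. (1 without the third gland). For 4T1 tumors from 1 to 3 w p.i., 0 became 6 without both tumors numbered 1. The change of the difference between the tumors gave 0 called members from 1 to 3 w p.i. (0 to 8 with 1 library left out) and 2 from 3 to 6 w p.i., with 0 when only the groups compared were fitted, 5 without both tumors numbered 1 and 1 to 7 with 1 library left out. The causes were not tested. Within a week, 17 of 54 pairs of libraries that shared a number had a correlation of their deviations above 0.1, in a range of -0.54 to 0.79. Between groups compared directly, the numbers were taken as pairs only where all 3 pairs were above 0.1. The block changed no other count by over 1.5 times.

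Signs turned in differences that had not been called. Ucp1 went to -0.067 with cyclic loess and -0.11 with quantile normalization between the tumors at 6 w p.i., and to -0.0019 with quantile normalization in Py230 tumors against glands at 6 w p.i. Without both tumors numbered 1, 4T1 tumors against BALB/c glands at 3 w p.i. had Adipoq at 0.063, Plin1 at 0.046, Fabp4 at 0.017, Cidec at 0.12, Lpl at 0.083, Adrb3 at 0.053 and Car3 at 0.053. With 1 library left out, signs turned within the following ranges. For 4T1 against Py230 tumors at 1 w p.i. the range was Ucp1 -0.00645 to 0.12. For 4T1 against Py230 tumors at 3 w p.i. the range was Lep -0.70 to 0.16, Adipoq -0.38 to 0.71, Plin1 -0.20 to 0.84, Fabp4 -0.16 to 0.77, Cidec -0.0275 to 0.93, Pparg -0.12 to 0.46, Adrb3 -0.0912 to 0.87 and Car3 -0.12 to 0.90. For 4T1 against Py230 tumors at 6 w p.i. the range was Ucp1 -0.0651 to 0.0677 and Fabp4 -0.42 to 0.0803. For 4T1 tumors against BALB/c Matrigel glands at 3 w p.i. the range was Adipoq -0.77 to 0.0629, Plin1 -0.75 to 0.0456, Fabp4 -0.73 to 0.0166, Cidec -0.58 to 0.12, Lpl -0.35 to 0.0827, Adrb3 -0.70 to 0.0526, Car3 -0.73 to 0.0532 and Ucp1 -1.37 to 0.19. For Py230 tumors against C57BL/6 Matrigel glands at 1 w p.i. the range was Cidec -0.17 to 0.0569 and Ucp1 -0.47 to 0.061. For BALB/c against C57BL/6 Matrigel glands at 1 w p.i. the range was Ucp1 -0.00386 to 1.68. The depth of the libraries is unknown, so that no counting error could be given.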
